A study of Mus musculus with 9 samples.

Results

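Il2 and Il21 encode the cytokines interleukin-2 and interleukin-21 and lie next to each other in the mouse Idd3 interval, one of the regions linked to autoimmune diabetes in NOD mice. Both genes were taken by name from 21627 protein-coding genes on chromosomes 1 to 19 and X, so they are 2 members defined by name and position, with no threshold on a measured value. An interaction was assigned to a gene when the midpoints of its 2 anchors were at least 10 kb apart and either anchor overlapped the gene body extended by 5 kb on each side. The measured quantity is the number of read pairs that join the 2 anchors, summed over a gene's interactions and given as RPM, read pairs per 1000000 read pairs used in that table.

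The material was live CD4+ CD8+ double-positive thymocytes sorted from thymus, the stage at which T cell receptor alpha genes are rearranged. HiChIP, which combines chromosome conformation capture with immunoprecipitation, was done with an antibody to the cohesin subunit Smc1 or to H3K27ac, the acetylated histone found at active regulatory elements. With Smc1 there were 2 libraries from C57BL/6J (BL6), 2 from NOD/ShiLtJ (NOD) and 1 from a cross, (NOD/ShiLtJ X C57BL/6) F1. With H3K27ac there were 2 libraries from BL6 and 2 from NOD. No group carried a transgene or a treatment, and the age, sex and number of the animals were not given in the sources used here. The Smc1 libraries of a strain are named in the labels as technical replicates of 1 biological replicate, whereas the H3K27ac libraries are named as biological replicates, so p-values for Smc1 measure a spread that may be technical. For the 4 H3K27ac samples the title gives Smc1 and the antibody field gives H3K27ac; the field was followed. Library numbers follow the titles. For the Smc1 NOD libraries the names of the tables carry other numbers, and each table was taken for the sample it is recorded under.

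Interleukin-2 is the growth factor of activated T cells and is needed to maintain regulatory T cells, and it is produced after T cell receptor stimulation through NFAT, AP-1 and NF-κB factors. Interleukin-21 is made mainly by follicular helper and other effector CD4+ T cells and acts on B cells, CD8+ T cells and natural killer cells. Both act through receptors that contain the common gamma chain, encoded by Il2rg, and signal through Jak1 and Jak3. Cohesin extrudes chromatin loops and holds distant segments together, and resting thymocytes are not a known major source of either cytokine.

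Il2 spans chr3:37120713-37125954 (GRCm38, 5242 bp, gene ID 16183) and Il21 spans chr3:37222759-37232636 (9878 bp, gene ID 60505). Both are transcribed from the minus strand, with 96.8 kb between them, in which the annotation places 2 long noncoding RNA genes, Gm36000 and Gm12532. The nearest protein-coding neighbour of Il2 is Adad1, at 9.2 kb, on the side away from Il21. The sequences shown are the 250 bases before each start site, because the anchors described next lie on either side of them. They come from RefSeq (GRCm38.p6), are written 5′ to 3′ on the minus strand, and cover chr3:37125955-37126204 for Il2 and chr3:37232637-37232886 for Il21. Capitals mark GGAAA or its reverse complement TTTCC, the core that NFAT factors recognise.
Il2: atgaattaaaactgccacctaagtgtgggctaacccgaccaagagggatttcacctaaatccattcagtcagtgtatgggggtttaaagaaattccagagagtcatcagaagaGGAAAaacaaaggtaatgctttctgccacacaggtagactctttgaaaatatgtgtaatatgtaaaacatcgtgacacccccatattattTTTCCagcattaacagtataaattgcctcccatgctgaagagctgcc
Il21: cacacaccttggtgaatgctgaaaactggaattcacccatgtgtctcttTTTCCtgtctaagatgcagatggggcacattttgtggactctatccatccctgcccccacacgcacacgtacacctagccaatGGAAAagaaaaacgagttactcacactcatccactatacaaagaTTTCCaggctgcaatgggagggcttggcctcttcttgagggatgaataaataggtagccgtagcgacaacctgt

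The Il2 window of 250 bases before to 50 after the start site held 2 matches to GGAAA on either strand, with first bases at -137 and -47 relative to the start site. The same window of Il21 held 3 matches, at -201, -118 and -74. Of 32851 mouse promoter windows of this length, 61.3% held at least 1 match. GATC, the site cut by the MboI enzyme used here, was in neither window and was in 48.0% of all windows. The AP-1 motif TGANTCA, the same on both strands, was also in neither window and was in 7.81% of all. These counts describe letters in a window and not factor binding.

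Listed anchors flanked the Il2 start site and did not cover it. An anchor is the segment at either end of a listed interaction, and overlapping anchors from different tables were merged into sites. The Il2 site listed in the most libraries, chr3:37123884-37125681, lay in the gene body from 0.27 to 2.07 kb after the start site and was present in 6 of 9 libraries, with 16 interactions and 39 read pairs. A site after the gene's end, chr3:37117726-37120145, was present in 5 libraries with 20 interactions and 47 read pairs, the most of any Il2 site. An upstream site, chr3:37127033-37128410, at -2.46 to -1.08 kb from the start site, was present in 5 libraries with 10 interactions and 23 read pairs. The gap between the upstream and gene body sites contains the promoter sequence printed for Il2, and no table listed an anchor on that 300-base window.

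Il21 had more sites, and 1 of them reached its start site. The gene body site chr3:37229148-37231080, 1.56 to 3.49 kb after the start, was present in 8 of 9 libraries and carried 32 interactions and 70 read pairs. An upstream site at chr3:37234542-37236171, at -3.54 to -1.91 kb from the start site, was present in 7 libraries with 23 interactions and 52 read pairs. In H3K27ac NOD library 1 that upstream site was the only Il21 anchor, while in H3K27ac NOD library 2 both anchors were in the gene body. Anchors on the promoter window printed for Il21 were listed only in the 2 Smc1 BL6 libraries, whose tables were also the deepest. Their merged site, chr3:37231814-37234410, was present in 4 libraries, including both Smc1 NOD libraries. The NOD anchors, chr3:37233328-37234410 and chr3:37233323-37234397, lay just upstream of that window. Whether depth or mapping had a part in this was not tested. The gene body sites of both genes were thus the most widely listed. The 3 shallowest tables, H3K27ac BL6 library 1 and the 2 H3K27ac NOD libraries, listed only 1 or 2 Il21 anchors each.

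**Figure D1:**
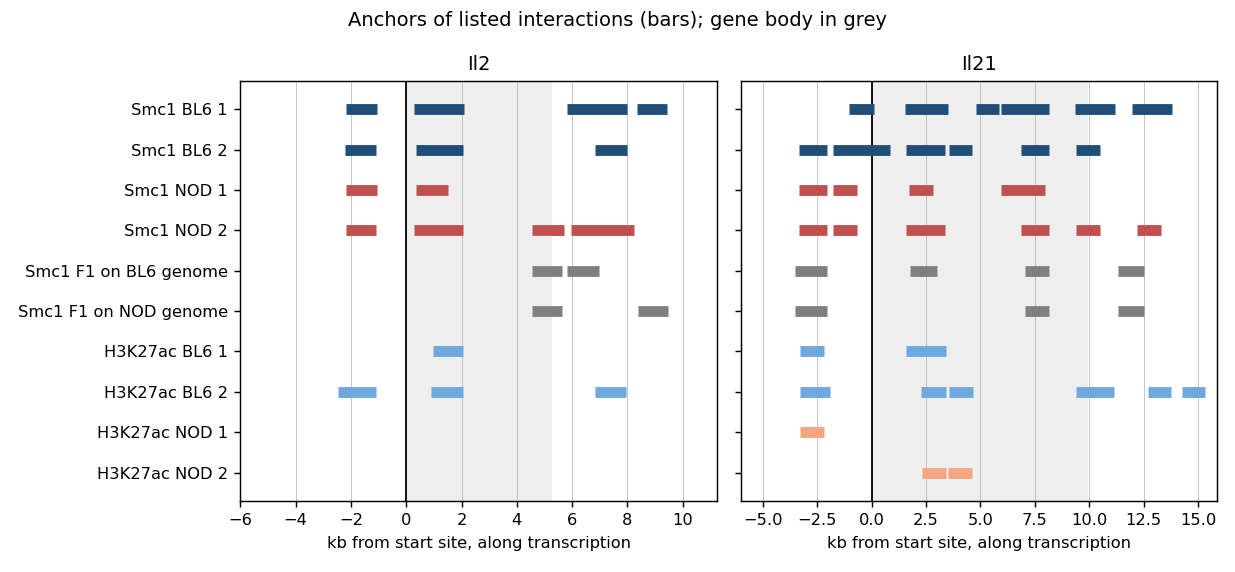
Position of every listed anchor of Il2 (left) and Il21 (right) in kb from the start site along the direction of transcription, 1 row per table, with bars for anchors and grey for the gene body. No Il2 bar crosses the start site, Il21 bars cross it in the 2 Smc1 BL6 rows, and the 2 H3K27ac NOD rows have no Il2 bar.

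Il2 had few contacts, and their number varied widely between libraries of 1 group. Its contact level was 9.47 and 15.3 RPM in Smc1 BL6 libraries 1 and 2, from 18 and 40 read pairs. In Smc1 NOD libraries 1 and 2 it was 3.61 and 20.9, from 6 and 31 read pairs, so the lowest and the highest Smc1 levels both came from NOD. In H3K27ac BL6 libraries 1 and 2 it was 9.07 and 15.8, from 4 and 19 read pairs. With the 5 kb flank, neither H3K27ac NOD table listed an Il2 interaction. Group means were 12.4 ± 4.09 for Smc1 BL6, 12.2 ± 12.2 for Smc1 NOD and 12.4 ± 4.75 for H3K27ac BL6 (SD, n = 2 libraries each, which are technical replicates for Smc1). The 3 groups with listed contacts overlapped entirely, and their means lay closer together than the libraries of any of them.

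The Smc1 levels of Il21 lay close together. Its level was 25.3 and 29.4 RPM in Smc1 BL6 libraries 1 and 2, from 48 and 77 read pairs, and 28.3 and 24.3 in Smc1 NOD libraries 1 and 2, from 47 and 36. In H3K27ac it was 13.6 and 26.6 in BL6 libraries 1 and 2, from 6 and 32 read pairs, and 15.8 and 16.1 in NOD libraries 1 and 2, from 6 and 8. The means were 27.3 ± 2.91 for Smc1 BL6, 26.3 ± 2.83 for Smc1 NOD, 20.1 ± 9.17 for H3K27ac BL6 and 15.9 ± 0.229 for H3K27ac NOD (SD, n = 2 libraries each, technical for Smc1). In this order the 2 Smc1 groups overlapped, H3K27ac BL6 overlapped with both, and H3K27ac NOD lay below both Smc1 groups and inside the range of H3K27ac BL6.

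**Figure D2:**
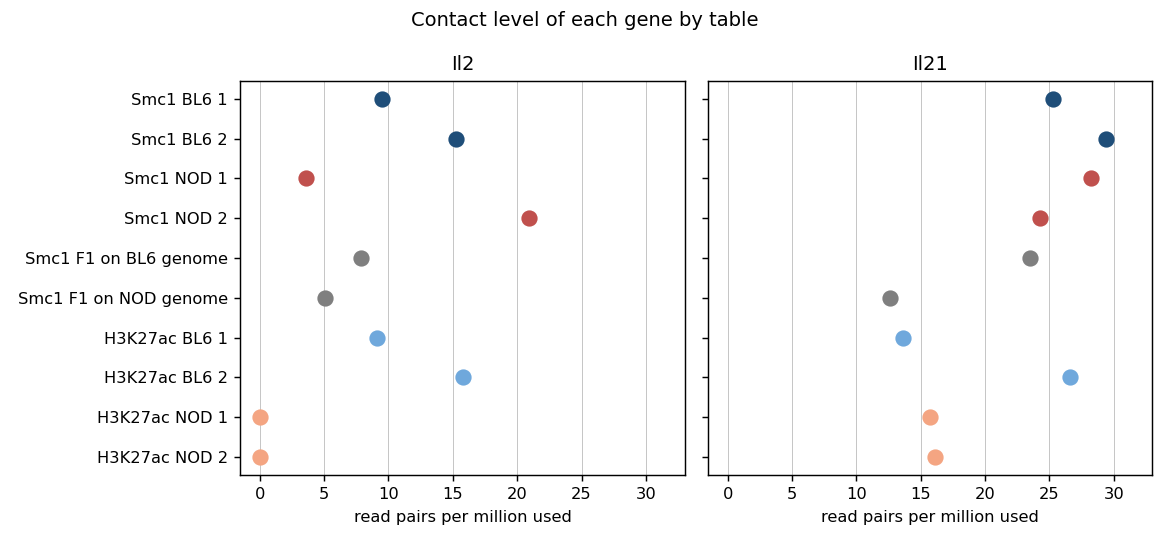
Contact level of Il2 (left) and Il21 (right) in RPM, 1 point per table, coloured by antibody and strain. Il2 spreads from 3.61 to 20.9 over the 2 Smc1 NOD tables, and Il21 stays between 24.3 and 29.4 over the 4 Smc1 BL6 and NOD tables. The Il2 points at 0 mean that no interaction was listed with the 5 kb flank.

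Per kb of window, which allows genes to be compared, Il2 stood below Il21 in 9 of 10 tables. The Il2 level per kb was 0.812 ± 0.269 in Smc1 BL6 and 0.803 ± 0.801 in Smc1 NOD, against 1.38 ± 0.146 and 1.32 ± 0.143 for Il21 (SD, n = 2 each). In Smc1 NOD library 2 the order turned, with 1.37 for Il2 and 1.22 for Il21. The median gene stood at 0.930 ± 0.00994 in Smc1 BL6 and at 0.908 ± 0.121 in Smc1 NOD (SD, n = 2 each). Over the 4 Smc1 BL6 and NOD libraries, Il2 lay above 18.5% to 76.9% of genes and Il21 above 66.0% to 76.2%. Neither gene was thus among the most contacted genes of these 4 libraries, in which Il21 sat in the upper part of the middle range. Il21 stood lower in H3K27ac, above 47.0% and 56.4% of genes in BL6 libraries 1 and 2. In H3K27ac NOD libraries 1 and 2 it lay above 51.1% and 42.5%. For the F1 library the share was 62.2% (BL6 genome) and 38.5% (NOD genome).

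Depth differed between tables. The Smc1 BL6 and NOD tables held 1484540 to 2620662 used read pairs, the F1 library 765188 (BL6 genome) and 791878 (NOD genome), and the H3K27ac libraries 380986 to 1203808. Because a listing needed 2 or more read pairs and a q-value of at most 0.05, a missing interaction is not a measured 0. With the 5 kb flank Il2 is therefore given no fold for the H3K27ac NOD group. The 2 H3K27ac NOD libraries, with no Il2 contact listed with that flank, held 380986 and 497751 used read pairs, against 440901 and 1203808 in H3K27ac BL6. Chromosome 3 also took less of their read pairs, 2.35% and 4.02%, than the 4.91% to 5.43% of the Smc1 tables, and 3.44% and 4.39% in H3K27ac BL6. Smc1 NOD library 1, with the lowest Smc1 level of Il2, had 26.1% of its interactions at 1 Mb or more, against 33.2% to 36.9% in the other Smc1 BL6 and NOD libraries. The part of these differences in the Il2 values was not tested.

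Most contacts of both genes were long and rested on the smallest count that was listed. Over 9 tables, 1 per library with the F1 library counted on the BL6 genome, Il2 had 53 interactions, of which 41 (77.4%) had 2 read pairs and 30 (56.6%) spanned at least 1 Mb. Il21 had 123, of which 98 (79.7%) had 2 read pairs and 62 (50.4%) spanned at least 1 Mb. Over all genes' interactions, 59.6% to 73.5% per table had 2 read pairs and 26.1% to 39.4% spanned at least 1 Mb. Contacts under 100 kb numbered 6 (11.3%) for Il2 and 2 (1.6%) for Il21, against 6.0% to 9.2% of all interactions per table. Partners were on both sides of the locus, with 29 of 53 for Il2 and 73 of 123 for Il21 towards higher coordinates, and 30 and 88 of them overlapped no protein-coding gene.

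**Figure D3:**
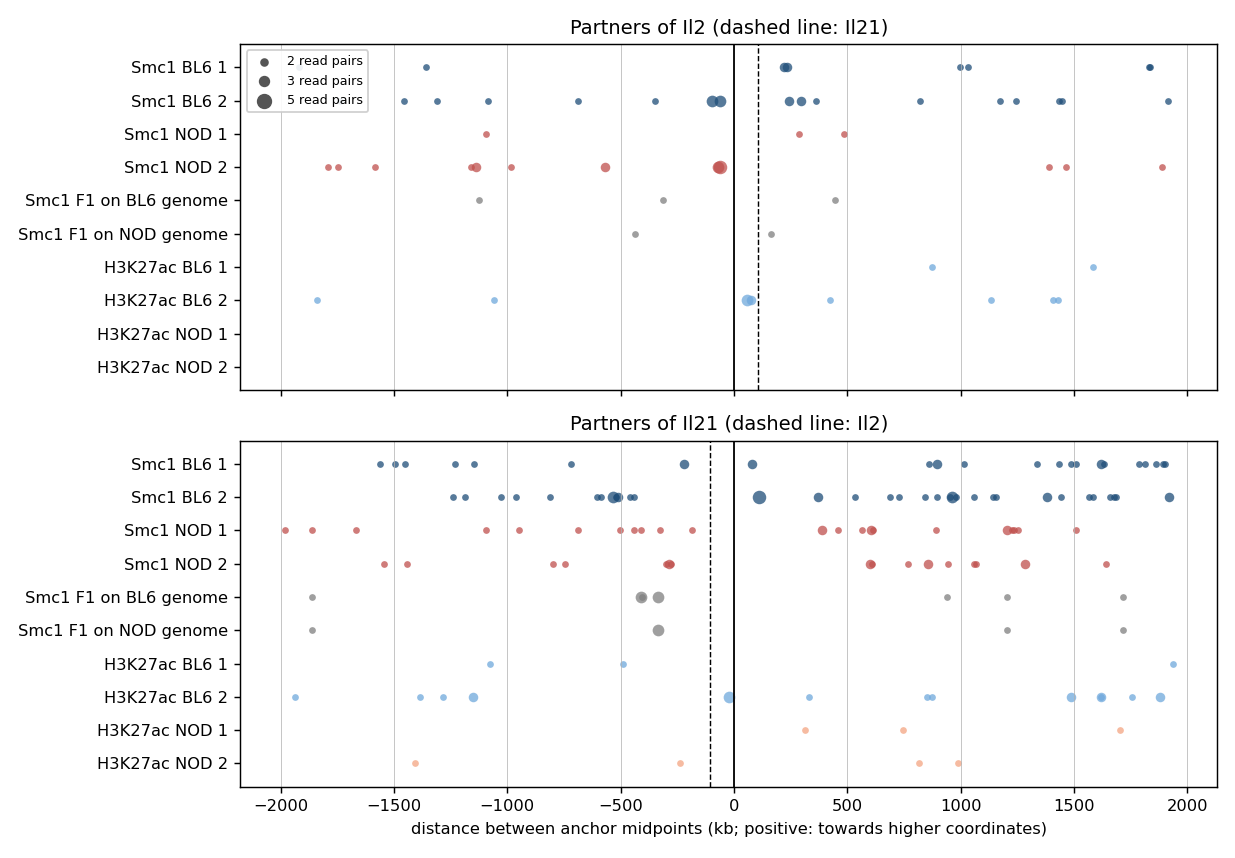
Partners of Il2 (top) and Il21 (bottom) by signed distance between anchor midpoints in kb, 1 row per table, with point size for read pairs and a dashed line at the other gene. Partners spread over 2 Mb on either side and none lies on the dashed lines; the widest points are the contacts with 5 read pairs, at 59.5 kb from Il2 and at 110.1 kb from Il21.

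No table listed a contact between Il2 and Il21. The count was 0 read pairs in all 10 tables with the genes extended by 5 kb, and also with no extension or with 10 kb. Among 18465 pairs of protein-coding genes with 80 to 120 kb between them, those with at least 1 direct contact made up 19.7% to 30.6% in the 4 Smc1 BL6 and NOD tables, 14.8% and 15.0% in the F1 tables, and 10.6% to 20.9% in the H3K27ac tables. A pair without a listed contact was therefore the usual case at this distance. With windows widened to 25 kb, a choice made after seeing the data, 3 read pairs were listed in Smc1 BL6 library 2 and 3 in H3K27ac BL6 library 2, and none elsewhere. With these windows NOD minus BL6 was -0.909 RPM, with only 2 libraries above 0. An exact permutation test of strain labels within antibody gave a p of 0.5. The libraries above 0 were both BL6 and differed in antibody, so the test could give no smaller p. It therefore cannot decide whether the strains differed.

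The genes rarely shared a distant partner. In Smc1 BL6 library 1 there was 1 shared partner anchor, chr3:38117539-38118998, which overlapped no protein-coding gene. In Smc1 BL6 library 2 there were 3, of which chr3:36033133-36035835 overlapped Ccdc144b and the other two no protein-coding gene. The other tables had 0 shared partners, while 14.4% to 54.8% of gene pairs at this distance shared at least 1 in a table. Those 4 partners all came from the 2 deepest tables. The gene pairs were matched on distance but not on window length or number of contacts, so the shares are not like for like.

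H3K27ac BL6 library 2 alone listed contacts of the genes with the interval between them. Il2 contacted chr3:37183644-37184734, inside Gm12532, over 56.5 kb with 4 read pairs, and chr3:37198606-37199944 over 74.8 kb with 3. Il21 contacted chr3:37208673-37209766 over 20.6 kb with 4 read pairs. The 86.8 kb interval itself, less 5 kb at each end, had contacts in every table, at 31.8 to 130.4 RPM, and the highest value was that of H3K27ac BL6 library 2. Both ends of the scale came from H3K27ac BL6, with 31.8 in library 1. The Smc1 BL6 libraries had 105.8 and 91.6.

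Among the 10 protein-coding neighbours within 500 kb, Il2 contacted genes on both sides. Adad1, a testis RNA-binding protein gene, was joined to Il2 by 4 read pairs in Smc1 BL6 library 2 and by 5 in Smc1 NOD library 2, and the 5 pairs spanned 59.5 kb. 4932438A13Rik, the large gene beyond Adad1, was joined by 8 and 4 read pairs in the same 2 libraries, over 60.3 and 97.8 kb in BL6 and 69.2 kb in NOD. The 60.3 kb contact in BL6 falls in the windows of both neighbours and counts for each. On the Il21 side, Fgf2, which encodes a fibroblast growth factor, was joined to Il2 by 6 and 3 read pairs in Smc1 BL6 libraries 1 and 2 and by 2 in Smc1 NOD library 1. Spata5, a gene for an AAA-type ATPase, was joined in 4 of 9 libraries by 5, 2, 2 and 2 read pairs, and Nudt6, which overlaps Fgf2 on the chromosome, in 2 libraries by 3 and 2. In Smc1 NOD library 1 a single contact of 2 read pairs touched the windows of Fgf2, Nudt6 and Spata5 and counts for each. Bbs12, Cetn4, Gm5148 and Spry1 had no listed contact with Il2.

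Among named genes, Il21 was listed most often with 4932438A13Rik, on the far side of Il2, and with the distant Fat4. 4932438A13Rik was joined to it in 5 of 9 libraries, with 3 read pairs in Smc1 BL6 library 1, 4 and 7 in Smc1 NOD libraries 1 and 2, 4 in the F1 library on either genome and 2 in H3K27ac NOD library 2. These libraries include both Smc1 NOD libraries and 1 of 2 Smc1 BL6 libraries, and no test of the strains was made on them. Fat4, which encodes a large atypical cadherin, was also joined in 5 of 9 libraries, by 2 to 6 read pairs. Atp11b, a phospholipid-transporting ATPase gene, was joined in 4 libraries by 2 read pairs in each. Spata5 was joined by 2 read pairs in each of 2 H3K27ac libraries and Cetn4, a centrin gene, by 3 in Smc1 BL6 library 1. Adad1, Bbs12, Fgf2, Gm5148, Nudt6 and Spry1 had no listed contact with Il21. Fgf2 and Nudt6, listed with Il2 in 3 and 2 libraries, were thus not listed with Il21, although Il21 is the nearer gene, and that difference was not tested.

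Few partners recurred. Of 45 bins of 25 kb contacted by Il2, 6 (13.3%) were listed in at least 2 libraries, and of 88 bins contacted by Il21, 27 (30.7%) were. Over all genes the share was 54.8%, pooled over genes of every window length and number of contacts. It was not matched to the short windows and few contacts of Il2 and Il21, so the shares are not like for like. The recurring Il2 bins held Mccc1, Ccdc144b, the 4932438A13Rik and Adad1 boundary, 2 bins at Fgf2 and its neighbours, and 1 bin without a protein-coding gene. No recurring bin of either gene was listed in more than 2 libraries.

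The contact levels of the neighbours give the setting. Spry1, a receptor tyrosine kinase signalling inhibitor gene, had the widest spread, from 0 to 4.66 RPM per kb over the 8 BL6 and NOD libraries. Spata5 stood at 1.55 ± 0.0352 in Smc1 BL6 and 1.42 ± 0.247 in Smc1 NOD, and Fgf2 at 1.57 ± 0.0747 and 1.40 ± 0.226 (SD, n = 2 each). 4932438A13Rik had the lowest mean in Smc1 BL6, with 0.624 per kb in either library, and had 0.605 ± 0.0441 in Smc1 NOD (SD, n = 2). In single libraries Il2 was lower in Smc1 BL6 library 1, at 0.622, and Cetn4 in library 2, at 0.442. By its mean Il2 lay between 4932438A13Rik and Adad1, which had 0.830 ± 0.0358 and 0.745 ± 0.0831, except that in Smc1 NOD the Il2 mean was above both. Every Smc1 value of Adad1 in BL6 and NOD was above every value of 4932438A13Rik, while those of Il2 overlapped with both.

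**Figure D4:**
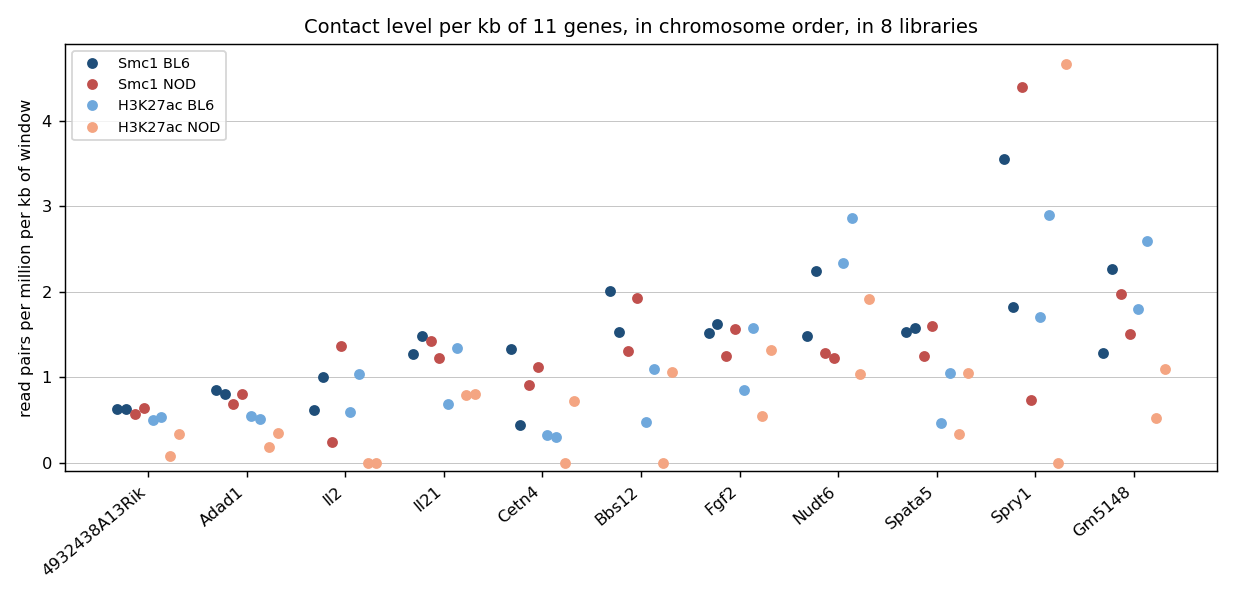
Contact level per kb of window in RPM, for Il2, Il21 and 9 of their 10 protein-coding neighbours in chromosome order, 1 point per library. The Il2 column has both H3K27ac NOD points at 0, and the Spry1 column spans 0 to 4.66.

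The first comparison asked whether contacts at the locus differed between diabetes-prone NOD and BL6 thymocytes near cohesin. Neither gene passed the test: the log2 fold change of NOD over BL6 was 0.06 ± 0.90 (SE; 95% interval -1.93 to 2.06) for Il2 and -0.02 ± 0.48 (-1.09 to 1.04) for Il21, both with an adjusted p of 0.9986 from edgeR's quasi-likelihood test with Benjamini-Hochberg adjustment. The interval of Il2 was wider than that of Il21, and both leave room for a difference in either direction. Over all genes 34 of 18049 passed, 30 higher and 4 lower in NOD, which is 0.188%. That count was 9 without Smc1 BL6 library 1, 3 without BL6 library 2 and 807 without NOD library 1, and neither Il2 nor Il21 passed in any of these. Without Smc1 NOD library 2 the value for Il2 was -1.82 and without NOD library 1 it was 0.86, and it was also negative, at -0.25, without BL6 library 1. NOD reads were mapped to the NOD genome and BL6 reads to the BL6 genome, so strain and mapping cannot be told apart here.

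The H3K27ac comparison of strains could not be made for either gene in the main fit, whose low-count filter removed both. Under some alternatives the filter kept Il21. Its log2 fold change of NOD over BL6 was then 0.06 ± 1.68 (SE) by chromosome 3 totals and -0.28 ± 1.16 with a 10 kb flank. The edgeR adjusted p-values were 0.9997 and 0.9999. It was -0.76 without H3K27ac BL6 library 1, and -0.40 and -0.36 without NOD libraries 1 and 2. Of 13880 genes left, 0 passed edgeR's test, or 0%, with 105 at an unadjusted p under 0.05. DESeq2, on 18645 genes, called 20. Without the filter, Il2 had an unadjusted p of 0.102 and Il21 a log2 fold change of -0.38 ± 1.40 (SE), and both had an edgeR adjusted p of 0.9998. The difference in Il2 between 4 and 19 read pairs in BL6 and no listed interaction in NOD thus did not pass. The count of genes passing rose to 27 without H3K27ac NOD library 2.

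Between antibodies neither gene passed the test, although the Il21 levels of H3K27ac NOD lay below those of Smc1 NOD. In BL6, H3K27ac over Smc1 gave a log2 fold change of -0.24 ± 0.87 (SE; 95% interval -2.37 to 1.88) for Il2 and -0.68 ± 0.68 (-2.34 to 0.97) for Il21, with edgeR adjusted p-values of 0.98 and 0.917. The Il21 value was -1.29 without H3K27ac BL6 library 2, -0.32 without H3K27ac BL6 library 1 and -0.01 when scaled by chromosome 3 totals. In NOD, Il21 gave -1.06 ± 0.82 (-3.07 to 0.94), with an adjusted p of 0.863, and Il2 was removed by the filter. With chromosome 3 totals this Il21 value was 0.061. Without the filter Il2 in NOD had an unadjusted edgeR p of 0.0465 and an adjusted p of 0.614. Over all genes 0 of 17606 in BL6 and 0 of 16623 in NOD passed edgeR's test (0% each), with 1189 and 1300 at an unadjusted p under 0.05. DESeq2 called 204 of 19681 and 343 of 19615. The edgeR count was 1235 without H3K27ac BL6 library 1 and 5158 without BL6 library 2, and in NOD it was 54 without Smc1 library 1, 429 without H3K27ac library 1 and 1914 without H3K27ac library 2. Neither Il2 nor Il21 passed in any of them. The comparisons share libraries, since each group enters both a strain and an antibody comparison.

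The neighbours' H3K27ac values were mostly negative in the same comparisons. Of the 10 neighbours, 8 were tested between strains in H3K27ac, and all 8 had negative log2 fold changes with a median of -0.95, against -0.01 over all genes, but none passed. In NOD, H3K27ac over Smc1 was negative for 10 of 10 with a median of -1.59, against -0.05 over all genes, and none passed. When libraries were scaled by their chromosome 3 read pairs, these medians were -0.64 with 6 of 8 negative and -0.54 with 7 of 10 negative, while the medians over all genes moved to 0.37 and 1.06. In BL6 the antibody median of the neighbours was -0.63 (7 of 9 negative) and became -0.02 (5 of 10 negative) with that scaling, against -0.06 and 0.65 over all genes. In Smc1 the strain median was -0.07, with 2 positive and 8 negative, against 0.01 over all genes.

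Tables of the F1 library exist for either genome, without a replicate and without a test. Il2 had 6 read pairs in 3 interactions on BL6 and 4 read pairs in 2 interactions on NOD, and none of these partners was listed on both. Il21 had 18 read pairs in 7 interactions on BL6 and 10 read pairs in 4 interactions on NOD. All 4 Il21 partners on NOD were also listed on BL6, each with equal read pairs, so the tables are not independent counts. The contact with the most read pairs among these 4 joined Il21 to chr3:36886213-36887299 at 4932438A13Rik, with 4 read pairs.

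The receptors and signalling genes that serve these cytokines were followed as a list of 24 genes. None passed in any of the 4 comparisons. Between strains in Smc1, 12 of 23 tested members were positive and 11 negative, with a median log2 fold change of 0.03. In H3K27ac 4 of 18 were positive and 14 negative, with a median of -0.44 against -0.01 over all genes. Jak3, the kinase bound by the common gamma chain, had the smallest p in the Smc1 strain comparison, at -1.26 ± 0.55 (SE; edgeR adjusted p 0.9986). Il21r, the receptor of interleukin-21, stood at 1.05 to 1.80 RPM per kb in the 4 Smc1 BL6 and NOD libraries and at 2.69 to 11.9 in the 4 H3K27ac libraries, without overlap. Its H3K27ac over Smc1 difference was 2.37 ± 0.74 in BL6 and 1.65 ± 0.45 in NOD (log2, SE), with edgeR adjusted p-values of 0.574 and 0.373. Il2ra, the high-affinity interleukin-2 receptor chain, stood at 1.06 to 1.87 per kb in all 8 libraries. Il2rg, on chromosome X, had no listed interaction in any table.

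The transcription factors that act on Il2 or Il21 formed a list of 21 genes, all tested in every comparison, and none passed. Between strains the counts were 9 positive and 12 negative in Smc1, with a median of -0.11, and 13 and 8 in H3K27ac, with a median of 0.18. Nfatc3, an NFAT family member, had the smallest p of the list in the BL6 antibody comparison, at 1.67 ± 0.53 (log2, SE; edgeR adjusted p 0.5805). Satb1, an organiser of thymocyte chromatin, was at 1.17 ± 0.77 between strains in Smc1, with an edgeR adjusted p of 0.9986.

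Over the 8 BL6 and NOD libraries, the gene off chromosome 3 whose levels ran most like those of Il2 was Trim30d, with a Pearson r of 0.939 on log2(RPM + 5), followed by Pcnx4 at 0.938, Ccdc68 at 0.932, Kel at 0.931 and Lrrc17 at 0.922. For Il21 they were Amn1 at 0.987, Adgrf2 at 0.985, Lurap1 at 0.984, Pgm5 at 0.980 and Fcer2a at 0.979. The r between Il2 and Il21 was 0.565. These are the highest of 14327 genes compared over the same 8 libraries, which differ in antibody, strain and depth, and they are given as a description.

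The label of the cells was set against 11 genes that mark double-positive thymocytes, as contact levels and not as expression. Between 9 and 11 of them had listed contacts in each table, with a median level per kb of 0.559 to 4.19. In H3K27ac BL6 library 1 and H3K27ac NOD libraries 1 and 2 the median was 3.58, 3.76 and 4.19, above those of the B cell, myeloid, natural killer, erythroid and thymic epithelial lists, whose highest was 2.86. In every other table the thymic epithelial list had a higher median than the double-positive list. These medians were 1.69 against 1.00 in Smc1 BL6 library 2 and 2.51 against 1.48 in H3K27ac BL6 library 2. In Smc1 NOD library 2 the double-positive median was 0.559, below the 0.823 of the median gene. The markers' levels thus followed the label, against the other lists, only in the H3K27ac tables named first.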

How the data were processed

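HiChIP contacts were read from 10 deposited tables of 9 libraries. Per the file headers and the values, the authors' tables give each interaction's read pairs and reads per anchor as counts and its p-value and q-value. Pairs lie within a chromosome, up to 2 Mb apart, and no listed pair had fewer than 2 read pairs or a q-value above 0.05. HiC-Pro, MACS, Juicer 1.7.6 and the build GRCm38 are named, without roles, per the submitters' processing notes. Per the names of the deposited tables, NOD reads were mapped to the NOD genome and the coordinates shifted, and the F1 reads have a table on each genome. How the reads per anchor were counted is not given in the sources used here.

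Read pairs were summed per gene with Python 3.11.15 and pandas 2.3.3, counting an unlisted pair as 0. Gene positions and promoter sequences came from RefSeq (GRCm38.p6), and both members matched. A gene body extended by 5 kb could overlap its neighbour's, so neighbours share interactions. Comparisons used edgeR 4.0.16 in R 4.3.3 (quasi-likelihood test, TMM, default filter on low counts, robust dispersion) on the libraries of the 2 groups compared. P-values were adjusted by Benjamini-Hochberg over all genes tested, with a threshold of 0.05. DESeq2 1.42.0, other scalings, windows, distances and count minima, a replicate block and leaving out each library were alternatives. On simulated counts for Smc1 between strains (18049 genes), the test called 2% of changes of 2-fold, 60% of 4-fold and 98% of 8-fold. For H3K27ac between strains (13880 genes) 18% of 16-fold changes were called. The changed genes were drawn from all genes tested and had a common dispersion. These rates are thus averages over genes and do not hold for Il2 or Il21, which had few read pairs.

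The members and gene lists were chosen with earlier results of these data known. Named genes were Il2 and Il21, the neighbours within 500 kb, up to 4 genes per list by smallest p, and the 5 genes most like each member among those with a mean of at least 20 read pairs. Partners outside 500 kb and Il2ra, Il2rg and Satb1 were named after their values were seen. Values of 1 neighbour are not reported here; it stays in the counts over neighbours.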

Additional observations from a re-analysis of the deposited data

Results flagged for a closer look

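Interactions shorter than 10 kb were outside the rule used in the report. In that range Smc1 BL6 library 2 listed 1 Il21 pair with 11 read pairs, over 3.9 kb, between chr3:37234684-37235972 and chr3:37238677-37239818, both before the start site. H3K27ac BL6 library 2 listed 1 Il2 pair with 6 read pairs, over 9.2 kb, between the gene body anchor chr3:37123918-37125054 and chr3:37133166-37134240 on the Il21 side. Each had more read pairs than any interaction of its gene over 10 kb, and neither pair was listed in another table.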

How the results depend on the processing

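Il2 and Il21 passed in no comparison under any alternative that gave an adjusted p, but their values near 0 changed sign, and the cause was not tested. For NOD over BL6 in Smc1, Il2 was -0.029 with no normalization factor, -0.049 scaled by chromosome 3 totals and -0.095 with a 10 kb flank, and leaving out 1 library gave -1.82 to 0.86. Il21 was 0.019 from interactions of at least 3 read pairs and 0.034 with a 10 kb flank, and ranged from -0.15 to 0.10 with 1 library left out. For H3K27ac over Smc1 in BL6, Il2 was 0.043 with no normalization factor, 0.44 by chromosome 3 totals and -0.74 to 0.17 with 1 library left out. There Il21 stayed negative, from -1.65 with no flank to -0.01 by chromosome 3 totals. In NOD, Il21 was 0.061 by chromosome 3 totals. With a 10 kb flank the filter kept Il2 in that NOD comparison, at -0.94 ± 1.155 (SE; edgeR adjusted p 0.915). Il2 contacts were thus listed in H3K27ac NOD in this wider window.

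Genes passing in Smc1 between strains numbered 34, against 22 by chromosome 3 totals, 15 from at least 3 read pairs, 17 with no flank and 3 to 807 with 1 library left out. In H3K27ac between strains 0 became 20 with DESeq2 and 0 to 27 with 1 library left out. Between antibodies, 0 became 204 in BL6 and 343 in NOD with DESeq2, and 0 to 5158 and 0 to 1914 with 1 library left out. The cause of these moves was not tested. A group left with 1 library was assumed to vary like the other group. The NOD minus BL6 difference in direct contact moved from 0 to -0.909 RPM with the 25 kb windows chosen after seeing the data.

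The replicate numbers, taken from the titles, pair libraries only by number. Same-numbered libraries correlated in their deviations at 0.23 and 0.59 for the strain comparisons in Smc1 and H3K27ac and at -0.19 and -0.34 for the antibody comparisons in BL6 and NOD. With the replicate block, 58 genes passed in Smc1 (41 higher, 17 lower), 42 in H3K27ac, and Il2 in Smc1 was -0.30.

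Some alternatives gave no value because the filter removed the gene: Il2 from at least 3 read pairs or with no flank, and several H3K27ac fits. The F1 library had no Il2 read pairs on either genome from interactions of at least 3 read pairs. With 0 to 77 read pairs per gene and table, depth limits every value here.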
